A study of Mus musculus with 72 samples.

Results

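The 9 genes described here carry or report the leukemia inhibitory factor (LIF) signal in mouse embryonic stem cells: the receptor chains Lifr and Il6st, the kinase Jak1, the transcription factor Stat3, and Socs3, Pim1, Pim3, Junb and Myc, which are known targets of that signal. They were chosen by name and not by a measured value, though with earlier results of these data known. For each, the transcript with the largest count summed over the 72 files was used. The 9 genes are 9 of the 45321 genes with a matched transcript, and all 9 passed the filter on low counts, which left 18273 genes for testing. Messenger RNA was sequenced from 5 lines, each at day 0, day 2 and day 3 of a differentiation towards neuroectoderm, and the series compared cells with and without Nup133, a subunit of the Y-complex of the nuclear pore.

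Control samples (Nup133+/+) were HM1 biological replicates 1 and 2, and line 1A4, which is derived from a blastocyst and carries Sox1gfp/+. Knockout samples were lines 14 and 19 (Nup133-/-, CRISPR/Cas9 derivatives of HM1) and line 319 (Nup133merm/merm, Sox1gfp/+, blastocyst-derived). With 2 genotypes and 3 days there were 6 groups, of 3 samples each. Values are listed throughout in the order HM1 replicate 1, HM1 replicate 2 and line 1A4 for controls, and lines 14, 19 and 319 for knockouts. The labels give 40 chromosomes, XY, for HM1, 1A4 and line 14 and the same as likely for line 19, and 42 chromosomes, XX with extra copies of 8 and 12, for line 319. The effect of genotype therefore rests on 3 knockout lines and 2 control lines, of which HM1 gave 2 of the 3 control samples. The blastocyst-derived background holds 1 control and 1 knockout line, with different sex chromosomes. Day 0 cells had grown on mitomycin-treated mouse fibroblast feeders in medium with serum and LIF, and were taken after the feeders had been plated off. Day 2 cells had been moved to N2B27, a medium with neither serum nor LIF, on gelatin. Day 3 cells then had 1 µM retinoic acid for 24 h. LIF, serum and feeders were removed in 1 step, so the effect of LIF withdrawal on these genes cannot be told apart from that of the other changes of medium.

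LIF binds Lifr, which pairs with the shared chain Il6st (gp130), and the associated JAK kinases phosphorylate STAT3. STAT3 then enters the nucleus and switches on genes that hold mouse embryonic stem cells in self-renewal, together with its own inhibitor Socs3, which binds the receptor complex and the kinases and damps the signal. Mouse embryonic stem cells in serum depend on this pathway, and its loss lets them leave the naive state.

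The RNA came from whole cultures, so fewer cells of a type and less RNA per cell cannot be told apart in any of the values below. A sample held from 16.5 M (line 19, day 2) to 54.4 M counts, in 4 technical files that were added up. Nup133 lay at 269, 244 and 194 CPM (counts per 1000000, TMM-scaled) in controls at days 0, 2 and 3 and at 29.6, 25.3 and 18.5 CPM in knockouts, with no overlap of the samples. The summed level of 8 pluripotency markers, among them Pou5f1, Nanog and Esrrb, was 5012 to 5191 CPM in controls at day 0, 1455 to 1577 at day 2 and 645 to 764 at day 3, and 5516 to 6416, 1437 to 2294 and 309 to 939 CPM in knockouts. The sum of 5 formative epiblast genes was highest at day 2, at 3208 to 3592 CPM in controls and 2425 to 3786 CPM in knockouts. The sample of line 19 at day 2 stood apart from the others. The transcript Gm42418 took 10.1% of its counts, against 0.0698% to 1.48% in the other samples, and on the second principal component its score was -81.6, and the remaining 5 samples of that day scored -38.8 to -22.3. Transcripts that end upstream of the one used were compared after the values were seen, and in this sample they held a lower share of its counts for Stat3 and for 3 of 4 Il6st transcripts. A Stat3 transcript (ENSMUST00000092671) that ends 1426 bases upstream of the one used held 30.9% of its counts there and 63.7% to 70.1% in the other samples. An Il6st transcript (ENSMUST00000184311) that ends 5595 bases upstream held 19.4% there and 41.7% to 50.2% elsewhere, whereas one (ENSMUST00000070731) that ends 3226 bases upstream held 86.0% there and 81.7% to 91.2% elsewhere. For a Lifr transcript (ENSMUST00000164529) that ends 12146 bases upstream, the share in this sample, 30.1%, lay within the range of the others, 24.9% to 40.1%. Lifr, Il6st, Jak1, Stat3 and Pim1, which have the 5 longest transcripts of the 9, were all lowest in this sample among the day 2 samples, and the 4 others were not. The part of this sample's RNA in those low values was not tested. The knockout changes of these 5 genes into and out of day 2 are given without it as well.

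Promoter sequence was read from RefSeq on GRCm38.p6 for 8 of the 9 genes, in 9 windows of up to 250 bases before a start site, because the data compare genes that are known to be switched on by STAT3 with genes that carry its signal. Motifs were searched on both strands. TTCNNNGAA, the classical element bound by activated STAT dimers, was found in the window of Socs3 and of no other gene of the 8. Of the 27025 genes in the table, 8.13% have it in a full window of 250 bases. The windows of Jak1, Pim1 and Pim3 were shorter, at 191, 218 and 242 bases. Those of Lifr lie before RefSeq starts at 7129572 and 7140542, upstream of the start of the transcript used (7154353). TTCNNNNGAA, a form with a longer spacer, was found in none of the 8 (6.76% of all genes). TGACGTCA, the palindrome bound by CREB and ATF factors, was found in the window of Jak1 alone (1.77% of all genes). A match is a stretch of letters, not a measured binding site, and a window without a match says only that these letters are not in it. The 2 windows with a match are shown 5′ to 3′ on the strand of the gene, with the motif in capitals. The Socs3 window covers chr11:117969367-117969616 on the minus strand, upstream of a RefSeq start at 117969366, and its match lies 154 bases before that start. The Jak1 window covers chr4:101265283-101265473, also on the minus strand, and its match lies 101 bases before the RefSeq start.
Socs3: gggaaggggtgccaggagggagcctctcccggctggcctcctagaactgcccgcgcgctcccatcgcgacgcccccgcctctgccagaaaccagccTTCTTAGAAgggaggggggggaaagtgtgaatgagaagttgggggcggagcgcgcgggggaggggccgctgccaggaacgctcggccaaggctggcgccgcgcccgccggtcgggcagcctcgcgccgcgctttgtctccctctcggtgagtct
Jak1: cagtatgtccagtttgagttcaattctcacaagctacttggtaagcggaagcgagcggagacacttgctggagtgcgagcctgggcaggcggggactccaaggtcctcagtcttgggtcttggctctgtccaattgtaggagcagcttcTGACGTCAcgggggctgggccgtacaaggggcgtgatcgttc

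Between day 0 and day 2, both receptor chains, Stat3 and the targets fell together in the control lines while the kinase did not. Of the 9 genes, 8 fell in the controls (edgeR's quasi-likelihood test, adjusted p below 0.05), where 15.5% of all genes tested fell and 35.2% changed in either direction. In the knockout lines 7 of the 9 fell, where 15.1% of all genes fell and 6561 of 18273 changed in either direction. The median log2 change of the 9 genes was -1.43 in controls and -1.71 in knockouts, beside 0.01 and 0.06 over all genes. All but Jak1, 8 of the 9 genes, were lower at day 2 in all 6 cultures (19.7% of all genes were), and Jak1 was lower in lines 19 and 319 only. Taking the cultures together, 7 genes were lower in every day 2 sample than in every day 0 sample, which held for 10.4% of all genes; the exceptions were Jak1 and Myc. The 2 sets of day 0 to day 2 values come from different samples. The test of a genotype difference in this step called none of the 9 (0 called, 0 at an unadjusted p below 0.05, 0 with DESeq2). Over all genes edgeR called 0.0219% and DESeq2 69 of 18273. Serum response genes fell in the same step: 6 of 8 tested in controls and 5 of 8 in knockouts, with medians of -1.44 and -1.17. Of the 8 pluripotency markers 7 fell in each genotype. Of 13 fibroblast genes tested, 5 fell and 2 rose in controls and 6 fell and 2 rose in knockouts, and of 6 mesendoderm genes 3 fell and 1 rose in controls and 1 rose in knockouts. The part of other cells and of serum in the falls of the 9 genes was not tested.

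**Figure D1:**
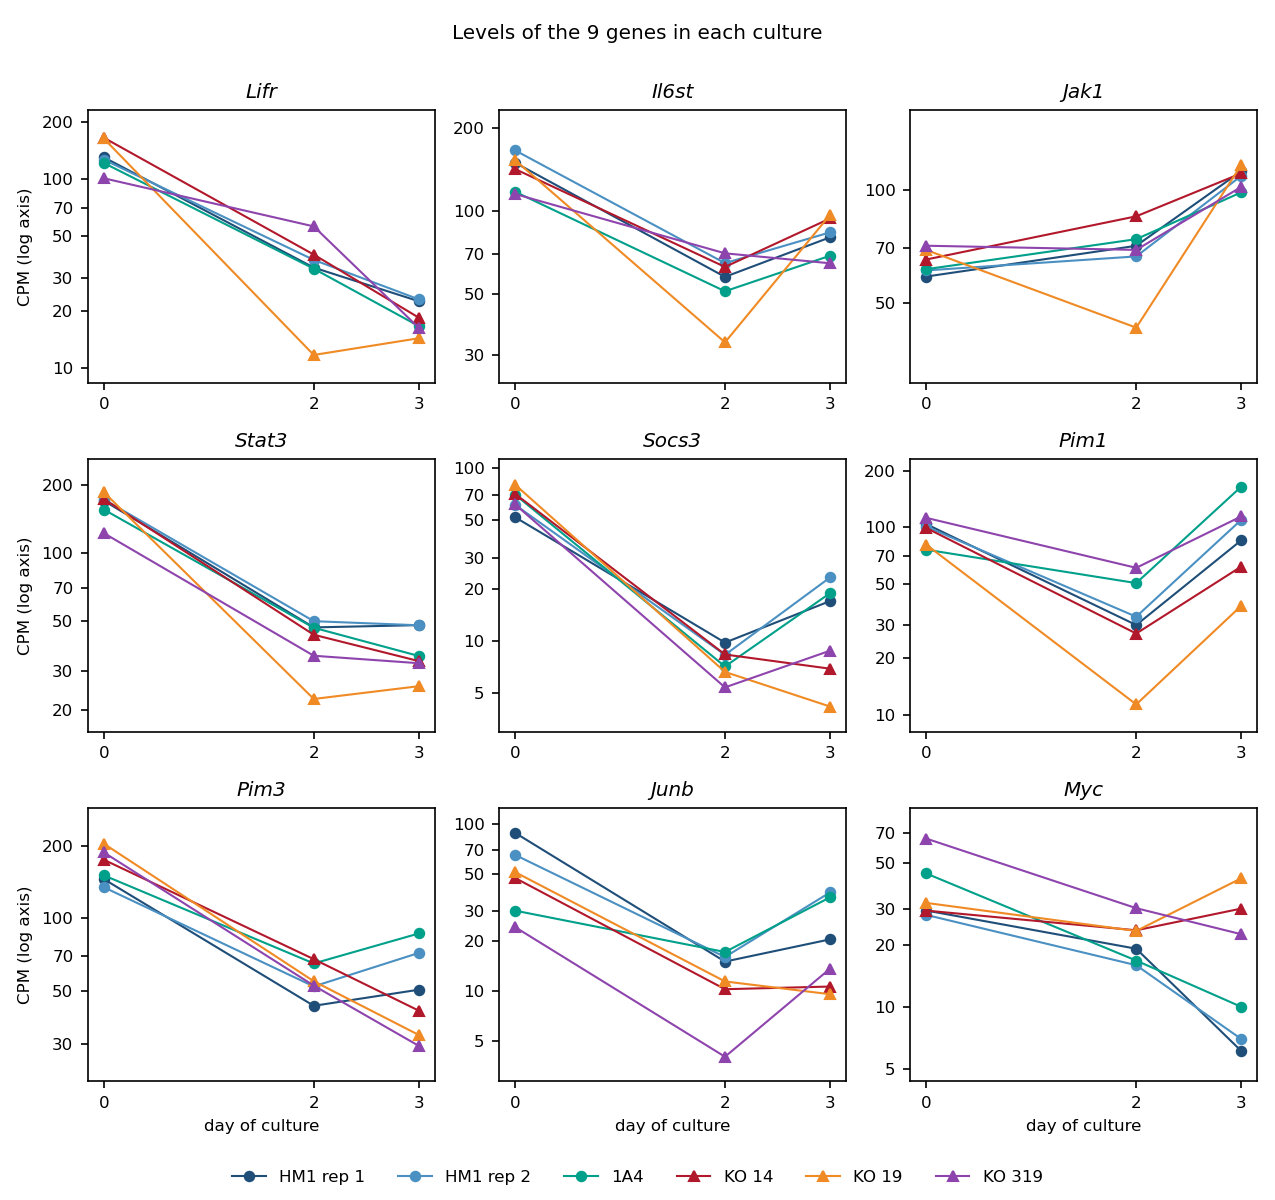
CPM of each of the 9 genes (log axis) against the day of culture, with 1 line per culture; circles are control cultures and triangles knockout cultures. Lifr, Il6st, Stat3, Socs3, Pim1, Pim3 and Junb are lower at day 2 than at day 0 in all 6 cultures with no overlap between the days, and at day 3 Myc separates the knockout cultures (22.6 to 42.3 CPM) from the controls (6.14 to 10.05 CPM).

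Lifr encodes the chain that binds LIF (chr15:7154353-7197489 on the plus strand, ENSMUST00000171588, 19 exons; all gene positions are GRCm38, GENCODE M21). It held 130.3, 127 and 122 CPM in day 0 controls and 34.0, 37.4 and 33.6 CPM at day 2. In knockouts it held 165, 164 and 101 CPM at day 0 and 39.9, 11.8 and 56.2 CPM at day 2. The control cultures lay close together at both days, whereas at day 2 line 19 was the lowest and line 319 the highest of all 6. Lifr fell by 1.85 ± 0.37 (log2, ± SE) in controls, which is 3.60-fold (adjusted p = 0.00123), and by 1.98 ± 0.38 in knockouts (adjusted p = 0.000806). Per culture, the day 0 to day 2 change in knockouts ranged from -3.80 (line 19) to -0.85 (line 319), and in controls from -1.94 to -1.76. Without line 19 at day 2 the knockout change was -1.52 ± 0.21, adjusted p = 5.19e-05. Fitted on day 0 and day 2 knockouts alone it was -2.06 ± 0.59, adjusted p = 0.0599, above the threshold.

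Il6st, the signalling chain shared by the IL-6 family of cytokines (chr13:112464070-112510086, plus strand, ENSMUST00000183663, 17 exons), had a smaller fall. It held 149.7, 166 and 118 CPM in day 0 controls and 57.7, 64.7 and 51.2 CPM at day 2. The knockouts held 142, 153 and 115 and then 62.7, 33.4 and 70.2 CPM. No day 2 sample reached a day 0 sample. The fall was 2.49-fold in controls (-1.31 ± 0.23, adjusted p = 0.000403) and 2.41-fold in knockouts (-1.27 ± 0.23, adjusted p = 0.000529). With the line 19 day 2 sample left out, the knockout change was -0.96 ± 0.13, adjusted p = 6.89e-05.

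Jak1, the kinase bound to gp130 (chr4:101152367-101265282, minus strand, ENSMUST00000102781, 25 exons), did not pass the test between day 0 and day 2 in either genotype. Its level was 58.9, 61.1 and 61.6 CPM in day 0 controls and 71.0, 66.6 and 74.0 CPM at day 2, a difference of 0.22 ± 0.18 (adjusted p = 0.367). Every control culture was higher at day 2. When only the day 0 and day 2 controls were fitted, this difference passed the test (0.24 ± 0.06, adjusted p = 0.00722). Knockouts held 65.3, 69.3 and 71.1 CPM at day 0 and 85.1, 43.1 and 69.3 CPM at day 2 (-0.06 ± 0.18, adjusted p = 0.832), with line 19 low and line 14 high. Without line 19 at day 2 the knockout difference was 0.19 ± 0.11, adjusted p = 0.179. Its transcript overlaps Raver2, on the opposite strand, by 4 bases.

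Stat3 (chr11:100886810-100939540, minus strand, ENSMUST00000127638, 24 exons), the factor that carries the LIF signal to the nucleus, fell 3.49-fold in controls and 4.73-fold in knockouts. Day 0 controls held 171, 173 and 156 CPM and day 2 controls 46.7, 49.8 and 46.6 CPM. Day 0 knockouts held 174, 187 and 123 CPM and day 2 knockouts 43.3, 22.5 and 35.0 CPM. The control values at day 2 lay within a narrow band, and the 3 knockout lines all lay below it. The log2 changes were -1.80 ± 0.21 (adjusted p = 1.79e-05) and -2.24 ± 0.22 (adjusted p = 2.75e-06), and the latter was -1.99 ± 0.16, adjusted p = 5.59e-07 without line 19 at day 2. By culture they ran from -1.87 to -1.75 in controls and from -3.05 to -1.81 in knockouts.

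Socs3 (chr11:117966079-117969186, minus strand, ENSMUST00000054002, 2 exons), the feedback inhibitor whose promoter window is shown above, had the largest fall of the 9 genes in both genotypes. It held 51.9, 61.2 and 70.1 CPM in day 0 controls and 9.80, 8.32 and 7.13 CPM at day 2. In knockouts it held 70.8, 80.0 and 61.6 CPM and then 8.36, 6.64 and 5.40 CPM. All 6 cultures dropped below 10 CPM, and line 19 was not the lowest. The fall was 7.26-fold in controls (-2.86 ± 0.26, adjusted p = 2.12e-06) and 10.3-fold in knockouts (-3.37 ± 0.27, adjusted p = 5.63e-07).

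Pim1 and Pim3 encode serine/threonine kinases that promote survival and growth. Pim1 (chr17:29490753-29496112, plus strand, ENSMUST00000024811, 6 exons) held 104, 101 and 76.0 CPM in day 0 controls and 30.2, 33.4 and 50.4 CPM at day 2. Its knockout samples held 99.2, 80.9 and 112 and then 27.2, 11.4 and 60.8 CPM. The blastocyst-derived lines 1A4 and 319 kept the 2 highest day 2 levels, and line 19 the lowest. Pim1 fell by 1.42 ± 0.36 in controls (adjusted p = 0.00673) and by 1.71 ± 0.37 in knockouts (adjusted p = 0.00212). With the line 19 day 2 sample left out, the knockout change was -1.33 ± 0.31, adjusted p = 0.00404. The control call was lost without HM1 replicate 1 (adjusted p = 0.109) or without HM1 replicate 2 (0.0782). Over all genes, 2833 of 18532 and 3164 of 18492 were called in those fits, against 6439 of 18273 in the main fit. Gm26885, on the opposite strand, overlaps 468 bases of the Pim1 transcript, with 185 counts in all beside 52280 for Pim1.

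Pim3 (chr15:88862186-88865726, plus strand, ENSMUST00000042818, 6 exons) was the more even of the pair. It held 146, 135 and 151 CPM in day 0 controls and 43.4, 52.2 and 65.1 CPM at day 2. Knockouts held 175, 204 and 188 CPM and then 67.8, 54.9 and 52.6 CPM. The fall was 2.69-fold in controls (-1.43 ± 0.20, adjusted p = 7.21e-05) and 3.23-fold in knockouts (-1.69 ± 0.20, adjusted p = 1.73e-05).

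Junb and Myc are transcription factors, Junb a partner in the AP-1 complex and Myc a regulator of growth and of self-renewal. Junb (chr8:84976910-84978718, minus strand, ENSMUST00000064922, 1 exon) held 89.0, 65.6 and 30.3 CPM in day 0 controls and 15.0, 16.0 and 17.1 CPM at day 2. Knockouts held 47.7, 51.7 and 24.2 CPM and then 10.2, 11.4 and 4.02 CPM. Day 0 was the uneven day in controls: line 1A4 had less than either HM1 replicate, and line 319, of the same background, had the least of all. Junb lies on chromosome 8, of which line 319 carries an extra copy per its label. Junb fell by 1.86 ± 0.38 in controls (adjusted p = 0.00164) and by 2.28 ± 0.39 in knockouts (adjusted p = 0.000395).

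Myc (chr15:61985391-61990350, plus strand, ENSMUST00000022971, 3 exons) changed the least of the targets. It held 29.5, 28.1 and 44.6 CPM in day 0 controls and 19.2, 16.0 and 16.8 CPM at day 2. Knockouts held 29.5, 32.1 and 65.9 CPM and then 23.6, 23.4 and 30.3 CPM. All 6 cultures were lower at day 2, but the days overlapped, because line 319 at day 2 lay above both HM1 replicates and line 14 at day 0. Myc fell 1.91-fold in controls (-0.93 ± 0.27, adjusted p = 0.0146) and the change did not pass the test in knockouts (-0.68 ± 0.27, adjusted p = 0.0636). The control call was lost when any 1 of the 3 controls was left out. By edgeR, adjusted p was 0.0569, 0.0890 and 0.161 without HM1 replicate 1, HM1 replicate 2 and line 1A4. Over all genes, 2833, 3164 and 4504 were called in those fits, against 6439 in the main fit.

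During the 24 h in retinoic acid, still without LIF, part of the target group rose again and the genes no longer moved together. In controls Socs3, Pim1 and Jak1 rose (12.5% of all genes rose) and Myc fell (8.92% fell). In knockouts Pim1 and Jak1 rose (17.6% of all genes) and Lifr and Pim3 fell (16.0%). Socs3 went from 9.80, 8.32 and 7.13 CPM at day 2 to 17.0, 23.3 and 18.9 CPM at day 3 in controls, a 2.34-fold rise (adjusted p = 0.00220). In knockouts it went from 8.36, 6.64 and 5.40 to 6.93, 4.19 and 8.80 CPM, a log2 change of -0.04 ± 0.25 (adjusted p = 0.927). All 3 control cultures were higher at day 3, and among the knockouts only line 319 was.

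Pim1 reached 85.2, 109.6 and 165 CPM in day 3 controls and 61.8, 38.2 and 114 CPM in day 3 knockouts, and all 6 cultures were higher than at day 2, as 22.7% of all genes were. It rose 3.13-fold in controls (adjusted p = 0.00428) and 2.23-fold in knockouts (adjusted p = 0.0226). Without line 19 at day 2 the knockout rise was 0.79 ± 0.31 on the log2 scale and was not called (adjusted p = 0.0606). Jak1 reached 112, 109 and 98.5 CPM in controls and 111, 116 and 102 CPM in knockouts, higher in every day 3 sample than in any day 2 sample, as were 11.4% of all genes. It rose by 0.60 ± 0.18 in controls (adjusted p = 0.0270) and 0.73 ± 0.18 in knockouts (adjusted p = 0.00621). Control calls of this step were lost when a control culture was left out, as were calls over all genes (3918 of 18273 in the main fit). Without HM1 replicate 1 only Socs3 was called (1260 of 18532 over all genes). Without HM1 replicate 2 none of the 9 was (1215 of 18492). Without line 1A4 Jak1 was lost (edgeR adjusted p = 0.0923, with 2392 of 18880 genes called). The control Jak1 call was also lost with no filter on low counts (adjusted p = 0.0567), with transcripts added up (0.0513) and with HM1-derived lines only (0.0861). The knockout rise of Jak1 was 0.49 ± 0.11, adjusted p = 0.00311 without line 19 at day 2. In knockouts the Pim1 call was lost without line 14 (adjusted p = 0.101).

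Pim3 moved in opposite directions in the control and knockout cultures. Day 3 controls held 50.6, 71.9 and 86.7 CPM, above their own day 2 values in each culture, a difference that did not pass the test (0.38 ± 0.20, adjusted p = 0.190). Day 3 knockouts held 41.4, 32.9 and 29.6 CPM, below their own day 2 values in each culture, and the fall passed the test (-0.75 ± 0.20, adjusted p = 0.00900). Of all genes, 2.1% had 3 control cultures moving one way and 3 knockout cultures the other in this step. The control cultures of Myc fell to 6.14, 7.01 and 10.05 CPM (2.30-fold, adjusted p = 0.00571), and its knockout cultures held 30.1, 42.3 and 22.6 CPM (0.35 ± 0.27 from day 2, adjusted p = 0.338). Lines 14 and 19 were higher than at day 2 and line 319 was lower.

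The test of the genotype difference in the step itself called none of the 9 genes (0.0383% of all genes were called), with 3 of the 9 at an unadjusted p below 0.05. These were Socs3 (-1.26 ± 0.35, p = 0.00236, adjusted p = 0.355 by edgeR), Pim3 (-1.13 ± 0.28, p = 0.000925, adjusted p = 0.264 by edgeR) and Myc (1.55 ± 0.39, p = 0.00110, adjusted p = 0.276 by edgeR). DESeq2 called 2 of them, Pim3 (adjusted p = 0.0268) and Myc (adjusted p = 0.0319). Over all genes DESeq2 called 121 of 18273 in this comparison, and edgeR 7.

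The receptor chains took separate courses in the same step. Lifr held 22.6, 23.1 and 16.7 CPM in controls and 18.5, 14.4 and 16.4 CPM in knockouts, where the knockout fall passed the test (-1.14 ± 0.37, adjusted p = 0.0266) and the control difference did not (-0.75 ± 0.36, adjusted p = 0.158). With a replicate block for each culture the knockout fall was -1.04 ± 0.38 and missed the threshold (adjusted p = 0.0519). It was also lost when any 1 culture other than line 19 was left out (adjusted p = 0.0542 to 0.161). In the fit that leaves out line 19 at day 2, the knockout fall was larger (-1.59 ± 0.19, adjusted p = 3.56e-05) and the control difference passed the threshold (adjusted p = 0.00399). Il6st held 80.3, 83.7 and 68.8 CPM in controls and 93.9, 96.8 and 64.6 CPM in knockouts, above day 2 in 5 of 6 cultures, and passed the test in neither genotype (adjusted p = 0.200 and 0.0584). Without line 19 at day 2 the control difference in Il6st was called (0.42 ± 0.12, adjusted p = 0.0117), while the knockout difference was 0.27 ± 0.13, adjusted p = 0.138. The knockout difference was called without line 319 (0.98 ± 0.22, adjusted p = 0.00467), in which Il6st was lower than at day 2 (-0.12). Stat3 held 47.8, 47.8 and 34.9 CPM and 33.1, 25.6 and 32.4 CPM, and passed the test in neither genotype (adjusted p = 0.676 and 0.604; -0.40 ± 0.15, adjusted p = 0.0548 in knockouts without line 19 at day 2). Junb held 20.4, 39.0 and 36.4 CPM in controls, higher than at day 2 in each culture but short of the threshold (1.00 ± 0.37, adjusted p = 0.0683), and 10.6, 9.54 and 13.6 CPM in knockouts (0.50 ± 0.39, adjusted p = 0.335). Against day 2, Junb was higher by 1.76 on the log2 scale in line 319, and differed by 0.05 in line 14 and -0.25 in line 19.

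**Figure D2:**
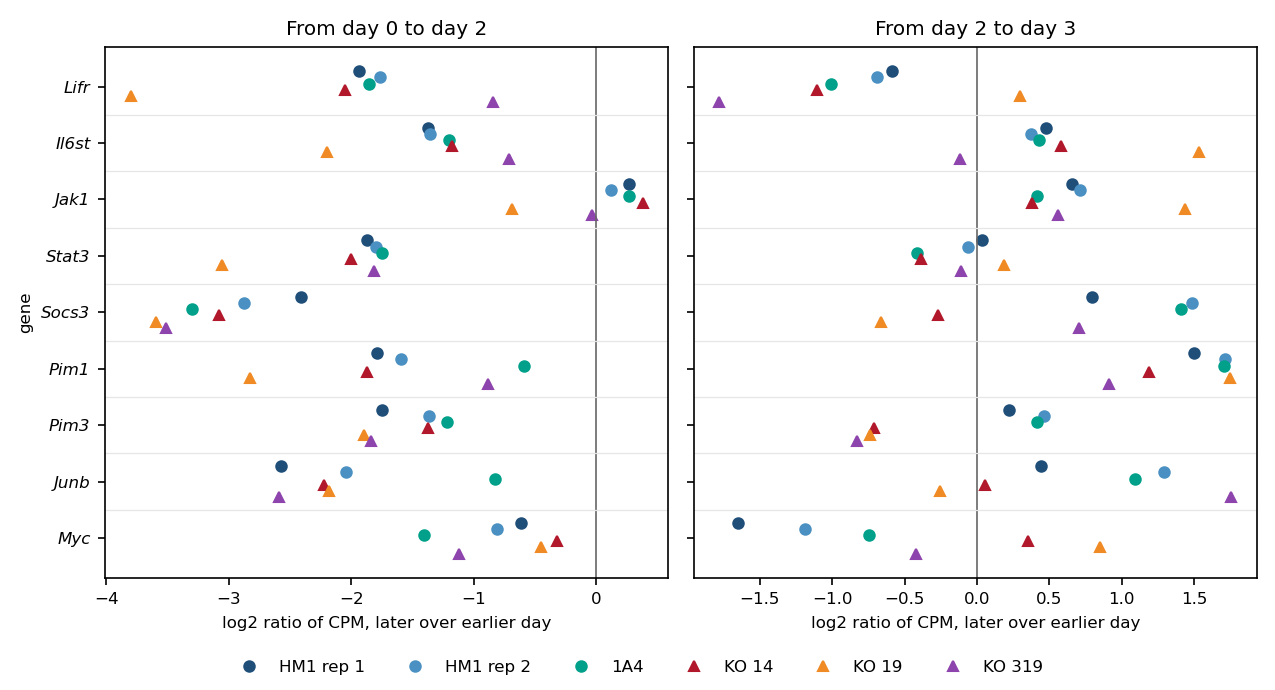
Log2 ratio of CPM between consecutive days for each gene (rows) in each culture (circles, controls; triangles, knockouts); left, day 0 to day 2, right, day 2 to day 3. On the left the points of 8 genes lie below 0 in all 6 cultures, and on the right the Pim3 points lie above 0 in the 3 control cultures and below 0 in the 3 knockout cultures.

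Set against day 0, 6 of the 9 genes were still lower at day 3 in controls (23.3% of all genes fell) and Jak1 was higher (27.7% rose). The 6 were Lifr (-2.60 ± 0.38), Il6st (-0.89 ± 0.22), Stat3 (-1.95 ± 0.21), Socs3 (-1.63 ± 0.25), Pim3 (-1.05 ± 0.20) and Myc (-2.14 ± 0.28), with edgeR adjusted p from 3.06e-06 to 0.00379. Pim1 (0.23 ± 0.35, adjusted p = 0.612) and Junb (-0.86 ± 0.38, adjusted p = 0.0688) did not pass. In knockouts 6 genes were lower (22.2% of all genes) and Jak1 was higher (28.4%), and here Junb (-1.79 ± 0.39) was among the 6 and Myc (-0.33 ± 0.27, adjusted p = 0.333) was not. The others were Lifr (-3.12 ± 0.39), Il6st (-0.69 ± 0.22), Stat3 (-2.39 ± 0.22), Socs3 (-3.41 ± 0.26) and Pim3 (-2.45 ± 0.21). Lifr was 6.06-fold lower in controls and 8.71-fold lower in knockouts, and Socs3 3.10-fold and 10.6-fold. The Il6st call was lost in controls without HM1 replicate 2 (adjusted p = 0.0524) and in knockouts without line 14 (0.0759), and Junb was called in controls without line 1A4 (-1.39 ± 0.41, adjusted p = 0.0181). Lifr, Il6st, Stat3, Socs3 and Pim3 lay lower in every day 3 sample than in every day 0 sample (19.1% of all genes), and Jak1 lay higher (22.4%). These day 0 to day 3 values share their day 0 and day 3 samples with the steps above and add no further evidence to them.

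Between genotypes at day 0, in serum and LIF, none of the 9 genes was called (0.854% of all genes). Of the 9, 0 had an unadjusted p below 0.05, and DESeq2 called 0 (563 of 18273 over all genes). Knockout Jak1 and Pim3 lay above every control sample, as did 8.06% of all genes. The estimates were 0.18 ± 0.18 for Jak1 and 0.40 ± 0.20 for Pim3 (adjusted p = 0.859 and 0.505). At day 2 again none was called (1.6% of all genes), and DESeq2 called 0 of the 9 (1406 of 18273 over all genes). By edgeR, 2 of the 9 had an unadjusted p below 0.05. These were Stat3 (-0.50 ± 0.21, adjusted p = 0.195) and Junb (-0.99 ± 0.39, adjusted p = 0.1705), whose knockout samples all lay below the controls (11.7% of all genes did). With that sample of line 19 left out, Stat3 was -0.26 ± 0.15, adjusted p = 0.393, and Junb -1.16 ± 0.43, adjusted p = 0.183. Myc lay above the controls in all 3 knockouts (9.94% of all genes; 0.55 ± 0.27, adjusted p = 0.267).

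At day 3 the genotypes differed in 4 of the 9 genes. Socs3, Pim3 and Junb were lower in knockouts (2.44% of all genes were) and Myc was higher (2.75%). Socs3 was 2.95-fold lower (-1.56 ± 0.25, adjusted p = 0.00425), Pim3 2.00-fold lower (-0.997 ± 0.198, adjusted p = 0.0118) and Junb 2.82-fold lower (-1.50 ± 0.38, adjusted p = 0.0355). Myc was 4.28-fold higher (2.10 ± 0.28, adjusted p = 0.00171). For each of these genes, and for Stat3, the 3 knockout samples lay wholly on one side of the controls; 17.6% of all genes lay higher in this way and 17.6% lower. Stat3 (-0.50 ± 0.21, adjusted p = 0.165) and Pim1 (-0.80 ± 0.36, adjusted p = 0.200) were not called, nor were Lifr (-0.34 ± 0.36), Il6st (0.12 ± 0.22) and Jak1 (0.04 ± 0.18). Without line 19 at day 2 in the fit, Stat3 was called (adjusted p = 0.0215), and Pim1 was called when only day 3 samples were fitted (adjusted p = 0.0360).

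Set against the control of its own background, each knockout line had the same sign in these 4 genes. That sign follows from the separation of the samples given above and adds no further evidence. For Socs3 the log2 ratio was -1.54 in line 14, -2.27 in line 19 and -1.10 in line 319. For Pim3 it was -0.56, -0.90 and -1.55, deepest in line 319. For Junb it was -1.48, -1.64 and -1.42, and at day 2 it had been -0.60, -0.44 and -2.09. The part of the extra chromosome 8 of line 319 was not tested. For Myc it was 2.20, 2.68 and 1.17, smallest in line 319. All 4 calls were lost without HM1 replicate 2, with the same sign. By edgeR, adjusted p was then 0.0770 for Socs3, 0.136 for Pim3, 0.209 for Junb and 0.0630 for Myc. Over all genes, 17 of 18492 were called in that fit, against 948 of 18273 in the main fit. Without line 1A4, Pim3 (-0.77 ± 0.20, adjusted p = 0.0693) and Junb (-1.13 ± 0.40, adjusted p = 0.161) were lost. In that fit 354 of 18880 genes were called. Junb was called in 9 of 16 alternatives, and Pim3 in 13.

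Some markers of other cells differed between genotypes at day 3, where 2.44% of all genes were lower in knockouts and 2.75% higher. The summed level of 15 fibroblast genes was 309 to 421 CPM in controls and 185 to 297 CPM in knockouts; 3 of the 13 tested were lower in knockouts (Acta2, Postn and Tagln) and 1 was higher (S100a4). The same list held 207 to 435 CPM in day 0 controls and 150 to 248 CPM in day 0 knockouts, and 204 to 268 and 126 to 161 CPM at day 2. In day 2 knockouts Fap and Postn held at most 3 counts in each sample. The sum of 5 macrophage and other immune genes was 6.92 to 7.67 CPM in day 3 controls and 3.02 to 4.48 CPM in day 3 knockouts. Of these, Ptprc, Adgre1, Csf1r and Lyz2 were below the filter on low counts, which left Cd68 as the only one tested. The sum of 7 mesendoderm genes was 11.7 to 21.8 CPM in day 3 controls and 30.8 to 77.4 CPM in knockouts (1 of 6 tested was higher), and at day 0 it was 54.4 to 114 CPM in controls and 11.8 to 16.4 CPM in knockouts. The sum of 7 primitive endoderm genes was 56.7 to 63.6 CPM in day 3 controls and 71.0 to 76.8 CPM in knockouts (2 of 7 were higher). The sum of 6 neural progenitor genes was 320 to 376 CPM in day 3 controls and 271 to 928 CPM in knockouts (1 of 6 was higher), and the pluripotency sum given above overlapped as well, though 2 of its 8 genes were lower in knockouts. The part of these cells in the levels of Socs3, Pim3, Junb and Myc was not tested.

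**Figure D3:**
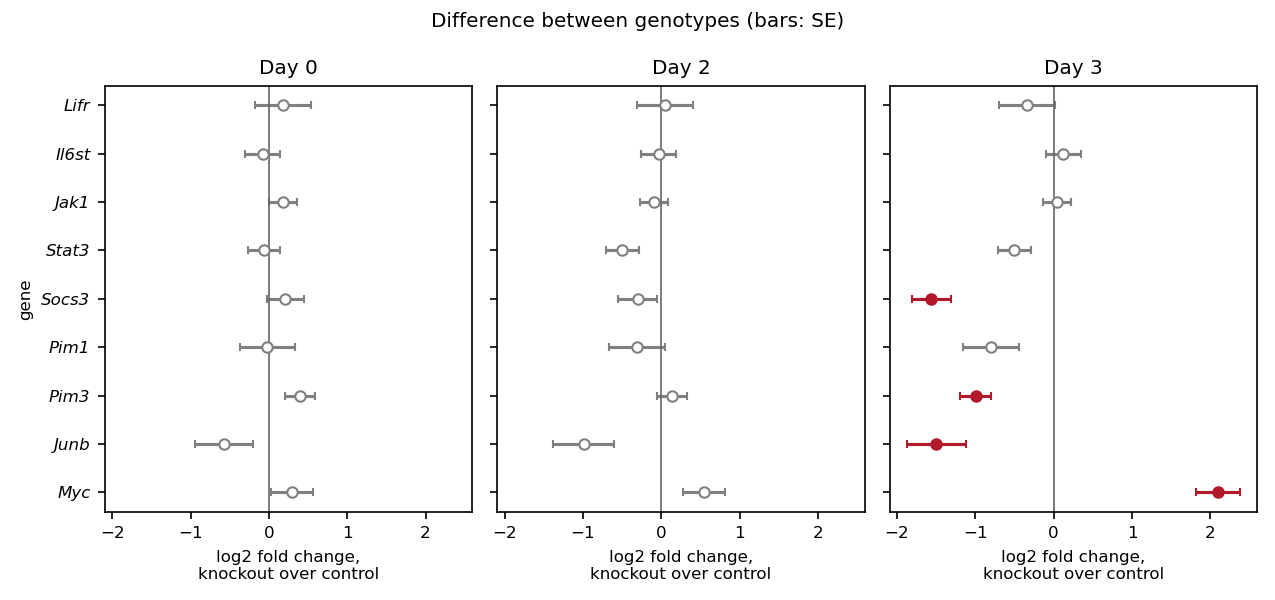
Log2 fold change of knockout over control for the 9 genes at day 0, day 2 and day 3, with bars of 1 SE from the edgeR fit; filled red points passed an adjusted p of 0.05 and open grey points did not. All points are open at days 0 and 2, and at day 3 Socs3 (-1.56), Pim3 (-0.997) and Junb (-1.50) lie below 0 and Myc (2.10) above it.

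Levels can be compared between genes only per transcript length. Per kilobase, Pim3 was the highest of the 9 in day 0 controls at 59.3 ± 3.41 CPM per kb (mean ± SD, n = 3), above the range of every other gene. Stat3 (36.9 ± 2.06), Pim1 (34.7 ± 5.69) and Junb (34.1 ± 16.3) followed with ranges that overlapped from each to the next, and Socs3 came next (23.9 ± 3.56), overlapping Junb. The receptor and kinase genes lay at the lower end: Il6st at 16.6 ± 2.84, Lifr at 13.1 ± 0.454 and Jak1 at 12.3 ± 0.295 CPM per kb, with Myc at 14.6 ± 3.92 between Il6st and Lifr and overlapping both. At day 2 Jak1 (14.4 ± 0.761) stood second to Pim3 (22.1 ± 4.49) with a range that overlapped that of Pim1 (14.1 ± 4.04), and Socs3 (3.30 ± 0.523) was last beside Lifr (3.63 ± 0.215). By day 3 Pim1 (44.4 ± 15.1) led the controls, overlapping Pim3 (28.7 ± 7.46), and Lifr (2.16 ± 0.370) was lowest. In day 3 knockouts Pim1 (26.5 ± 14.4) and Jak1 (22.4 ± 1.50) overlapped at the top, and Socs3 (2.60 ± 0.908) and Lifr (1.70 ± 0.212) overlapped at the bottom. Length refers to the transcript used for each gene, so a gene that uses a shorter form would have a higher value, and a longer form a lower one. For Stat3 the form used (4516 bases) had 55277 counts and a form of 6042 bases had 55276. For Myc the form used (2338 bases) and a form of 1365 bases had 18272 counts each. The places of Stat3 and Myc in these orders therefore depend on the form chosen.

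Across the 18 samples, log2 (CPM + 1) of Lifr and Stat3 had a Pearson correlation of 0.95, Stat3 and Socs3 of 0.94 and Socs3 and Pim3 of 0.92. Jak1 had -0.50 with Lifr, and Myc had -0.06 with Junb. These are descriptions: the 18 samples share lines, days, medium and scaling. The 3 genes whose pattern was closest to each of the 9, by the same correlation among 9405 genes, were as follows, with r in parentheses. For the receptor chains they were Arid5b (0.98), Pias2 (0.98) and Tet1 (0.98) for Lifr, and Sh3pxd2a (0.97), Fkbp15 (0.96) and Lox (0.96) for Il6st. For Jak1 they were Zfp800 (0.97), Mir546 (0.97) and Phf2 (0.96), where Mir546 is annotated as a microRNA locus, and for Stat3 Tead4 (0.99), Nr5a2 (0.99) and Sik1 (0.98). For Socs3 they were Bcl3 (0.99), Tnk2 (0.96) and Mymx (0.95). Bcl3, the closest to Socs3, encodes an IκB-like nuclear cofactor, and its group means were 31.2 ± 4.46 CPM in day 0 controls, 2.64 ± 0.131 at day 2 and 6.33 ± 0.358 at day 3. For Pim1 they were Dse (0.88), Cdc42ep3 (0.87) and Alpl (0.87), and for Pim3 Fblim1 (0.95), Fbxo6 (0.94) and Prune1 (0.93). For Junb they were Relb (0.94), Rell1 (0.93) and Gadd45b (0.92), and for Myc Zfp408 (0.92), Sltm (0.90) and Mfap1b (0.90). Mfap1b has a near-identical copy, Mfap1a, and its counts are uncertain.

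The rest of the pathway was read from 6 gene lists. For comparison, 15.5% of all genes fell from day 0 to day 2 in controls and 15.1% in knockouts. In either direction, 6439 of 18273 genes changed in controls and 6561 in knockouts. Among ligands and receptor chains of the IL-6 family, 12 of 13 were tested, and in the day 0 to day 2 step 6 fell and 1 rose in controls (median -0.97), and 4 fell and 2 rose in knockouts (median -0.90). Cntfr, the receptor chain for ciliary neurotrophic factor, rose from 5.21 ± 1.57 to 13.3 ± 1.98 CPM in controls (1.36 ± 0.35) and stood at 59.1 ± 6.06 CPM at day 3. Il6ra, the IL-6 receptor chain, fell from 7.09 ± 2.67 to 1.21 ± 0.139 CPM (-2.55 ± 0.45). The cytokine gene Osm fell from 2.41 ± 1.48 to 0.359 ± 0.219 CPM (-2.75 ± 0.67). Il6 ranged from 0.239 to 5.33 CPM in day 0 controls and had 0 counts in all 3 at day 2.

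The other JAK and STAT genes did not share one direction. Of 9 tested, 3 rose and 3 fell in controls, and 3 rose and 2 fell in knockouts (medians 0.13 and -0.31). Stat5b (1.26 ± 0.23), Stat2 (1.22 ± 0.15) and Jak2 (0.66 ± 0.24) rose in controls, and Jak3 (-1.99 ± 0.36), Stat4 (-0.75 ± 0.28) and Tyk2 (-0.61 ± 0.16) fell. Of the inhibitors of the pathway other than Socs3, 3 of 15 fell in controls, where 15.5% of all genes did (Socs1, -1.18 ± 0.38; Pias2, -0.82 ± 0.17; Ptpn2, -0.39 ± 0.14) and 1, Pias2 (-0.88 ± 0.17), in knockouts, with medians of -0.16 and -0.18.

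Among 18 further genes known as LIF or STAT3 targets in embryonic stem cells, 10 fell and 1 rose in each genotype (medians -1.34 in controls and -0.78 in knockouts). Klf4, a naive pluripotency factor, fell from 297 ± 92.1 to 7.78 ± 2.55 CPM in controls (-5.26 ± 0.54), with -5.34 ± 0.55 in knockouts. Tfcp2l1, another factor of the naive state, fell from 593 ± 96.3 to 38.5 ± 2.65 CPM (-3.92 ± 0.49) in controls, with -4.59 ± 0.51 in knockouts. Pramel7 was low throughout in controls and at least 7.14-fold lower at day 2, against a floor of 3 counts per sample.

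Relatives of the Pim, Myc and Jun genes went separate ways. Of 15, 6 fell and 1 rose in controls, and 3 fell and 4 rose in knockouts (medians -0.37 and -0.24). Of all genes, 15.5% fell in controls and 15.1% in knockouts. In either direction, 6439 and 6561 of 18273 genes changed. Pim2, the third Pim kinase, ran opposite to Pim1 and Pim3 from day 0 to day 2. It rose from 113 ± 55.4 CPM at day 0 to 739.8 ± 186 CPM at day 2 in controls (2.72 ± 0.56), and was at 55.5 ± 14.1 CPM at day 3. In knockouts it rose by 3.85 ± 0.59, and held 982 ± 377 CPM at day 2. The edgeR test of a genotype difference in this step called none of the 15 relatives (0.0219% of all genes were called). Fosb (-6.79 ± 1.16), Fos (-5.25 ± 0.85) and Fosl1 (-2.32 ± 0.56), AP-1 partners of Junb, fell in controls. The serum response genes Egr3 (-3.31 ± 0.62), Egr1 (-2.48 ± 0.69) and Egr2 (-2.24 ± 0.67) fell with them; Fos and Egr1 varied widely at day 0, from 126 to 450.3 CPM for Egr1 in controls.

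**Figure D4:**
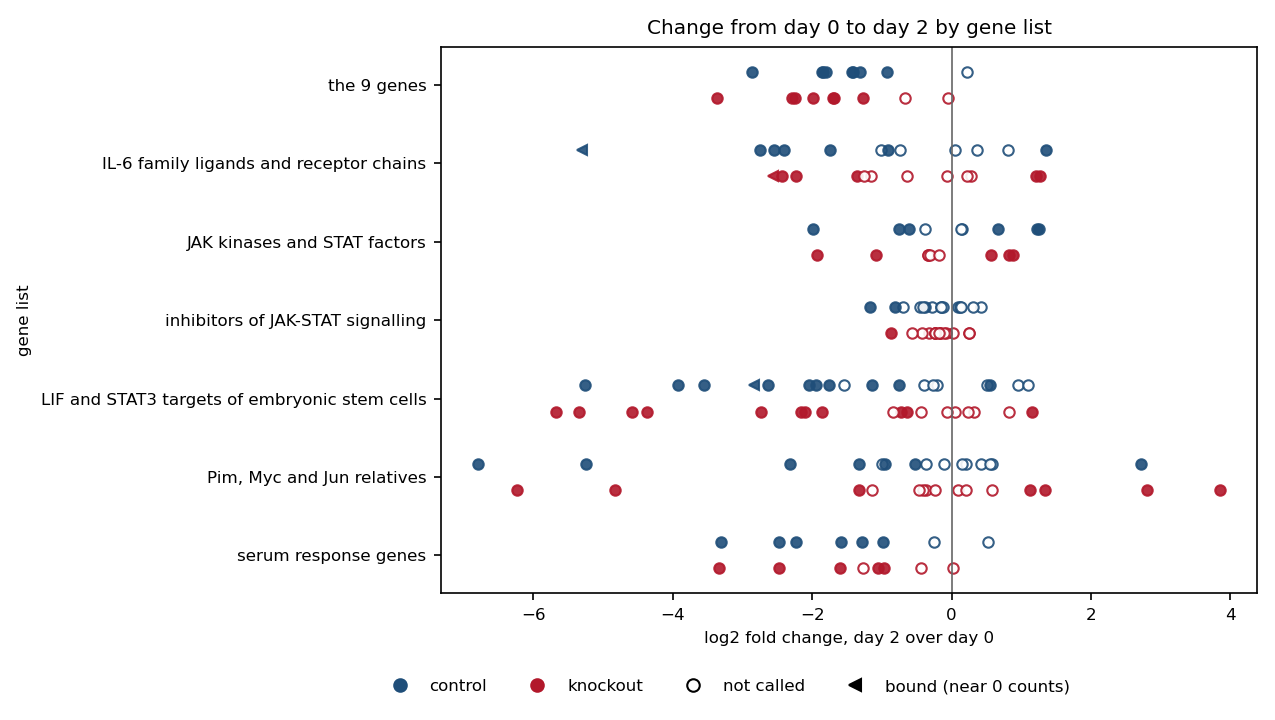
Log2 change from day 0 to day 2 (x axis) for each gene of the 9 and of the 6 pathway lists (rows), controls in blue and knockouts in red; filled symbols passed an adjusted p of 0.05, open symbols did not, and left-pointing triangles are bounds for genes near 0 counts. Points of the 9 genes, of the LIF and STAT3 targets and of the serum response genes lie mostly below 0 (medians -1.43, -1.34 and -1.44 in controls), while the JAK and STAT list lies on both sides (median 0.13).

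Between genotypes at day 3, where 2.44% of all genes were lower and 2.75% higher in knockouts, genes of 3 of these lists were called. Among the 18 LIF and STAT3 targets 2 were, both lower in knockouts and named here because they were called: Bcl3 (-1.40 ± 0.26, 6.33 ± 0.358 CPM in controls and 2.37 ± 1.03 in knockouts) and Zfp36 (-1.87 ± 0.40, 12.1 ± 4.37 and 3.28 ± 1.38 CPM). Of the JAK and STAT genes Stat2 was lower (-0.95 ± 0.14). Of the Pim, Myc and Jun relatives 3 were higher: Max, the dimer partner of Myc (0.54 ± 0.15), Mxd4, a Max partner that opposes Myc (1.20 ± 0.28), and Fosl1 (2.50 ± 0.65). Their edgeR adjusted p ran from 0.00317 (Stat2) to 0.0475 (Max). Genes of these lists were not limited by chromosome, and line 319 is XX with extra copies of 8 and 12 per its label. The part of copy number in these calls was not tested. No gene of the IL-6 family list, of the 15 inhibitors or of the serum response list was called at day 3. The medians were -0.18 for the targets, -0.52 for JAK and STAT genes and 0.20 for the Pim, Myc and Jun relatives, beside 0.02 over all genes. The calls of Bcl3 and Stat2 were lost without either HM1 replicate, and those of Zfp36, Max, Mxd4 and Fosl1 without any 1 of the 3 controls. Over all genes, 37 of 18532 were called without HM1 replicate 1 and 17 of 18492 without HM1 replicate 2. Without line 1A4 it was 354 of 18880, against 948 of 18273 in the main fit. Fosl1 was also lost without line 319, Zfp36 and Mxd4 without line 14, and Max without line 14 or line 19. With HM1-derived lines only, Max (0.49 ± 0.14, edgeR adjusted p = 0.0624) and Fosl1 (1.58 ± 0.47, edgeR adjusted p = 0.0765) were not called. Of the control calls named from day 0 to day 2, Jak2, Stat4, Tyk2, Socs1 and Ptpn2 were lost without any 1 control. Those of Fosl1, Egr1 and Egr2 were lost without either HM1 replicate, and that of Cntfr without HM1 replicate 1 or line 1A4. That of Osm was lost without HM1 replicate 1, and that of Pramel7 without HM1 replicate 2 or with no background term. Over all genes, 2833, 3164 and 4504 were called in this step without HM1 replicate 1, HM1 replicate 2 and line 1A4. The main fit called 6439.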

How the data were processed

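The authors deposited raw counts per GENCODE transcript, made with bcl2fastq 2.17.1.14, STAR 2.4.0k, SAMtools and HTSeq on mm10, per the submitters' processing notes; the strand setting and the annotation release are not given in the sources used here. The libraries were oligo(dT)-primed and stranded, per the labels' protocols. Of 110379 transcripts, 108214 matched GENCODE M21 (GRCm38), covering 45321 genes, and those without a match held 1.44% to 2.48% of the counts. Transcripts of a gene share reads, since their counts add up to 2.61 to 2.92 times the counts of the chosen transcripts, so the transcript with the highest total stood for each gene. The 4 technical files of each sample (72 files, 18 samples) differed by sampling noise (chi-square per degree of freedom 1.01 to 1.03) and were summed, giving 16.5 M to 54.4 M counts.

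After edgeR's filter on low counts 18273 genes remained. They were fitted with edgeR 4.0.16 (TMM, quasi-likelihood, R 4.3.3, limma 3.58.1) over 6 groups of genotype and day plus a term for genetic background (HM1 or blastocyst-derived), with 11 residual degrees of freedom, 11 comparisons and Benjamini-Hochberg adjustment over all genes (called below 0.05). The labels call the HM1 samples biological replicates and the others are single lines, so p-values measure the spread between these samples. Samples of 1 line and culture number were followed over the 3 days, and their deviations correlated above 0.1 in 15 of 18 pairs. Named genes were the 9, the 3 largest called changes per direction between day 0 and day 2 controls in each list, and the 3 closest patterns per gene (log2 of CPM + 1, at least 5 CPM, no clone names, not on chromosomes 8, 12, X, Y or MT). Of the genes this rule names, 1 is not reported here. A floor of 3 counts per sample bounds folds of genes at 0. The members, lists and tests were chosen with earlier results of these data known. Besides DESeq2 1.42.0, 16 other alternatives were run.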

Additional observations from a re-analysis of the deposited data

Results flagged for a closer look

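Pim3 took opposite directions in the 2 genotypes between day 2 and day 3: higher in each of the 3 control cultures (0.22, 0.46 and 0.41 on the log2 scale) and lower in each of the 3 knockout cultures (-0.71, -0.74 and -0.83). The difference of the steps was -1.13, with an adjusted p of 0.264 by edgeR and 0.0268 by DESeq2. Over all 18273 genes edgeR called 7 in this comparison and DESeq2 121. Such opposite directions occurred in 2.1% of all genes.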

How the results depend on the processing

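No called value reversed under any of the 17 alternatives. Of the values of the 9 genes, 1577 kept their side of the threshold, 48 lost the call and 31 gained it. The number of the 9 genes called was 4 between day 2 and day 3 in controls (3918 of 18273 over all genes). It became 7 without line 19 at day 2 (6094 of 18911) and 7 with only the samples compared (10076 of 16914). With 1 culture left out it was 0 to 6. It was 0 without HM1 replicate 2 (1215 of 18492 over all genes) and 1 without HM1 replicate 1 (1260 of 18532). In knockouts it was 4 in that step (6141 of 18273 over all genes). It became 2 with no filter on low counts (5221 of 30658) and 0 with only the samples compared (1940 of 16524). With 1 culture left out it was 2 to 5, with 2 without line 14 (4386 of 18525 over all genes). At day 3 it was 4 between genotypes (948 of 18273 over all genes), and 0 to 4 with 1 culture left out. It was 0 without HM1 replicate 2 (17 of 18492 over all genes) and 2 without line 1A4 (354 of 18880). For the genotype difference in the step from day 2 to day 3 it was 0 (7 of 18273 over all genes). It became 2 with DESeq2 (121 of 18273) and 1, Myc, with HM1-derived lines only (14 of 18512). With 1 culture left out it was 0 to 2. It was 2, Socs3 and Myc, without line 319 (133 of 18672 over all genes). The causes were not tested. The number of the 9 genes called in the other comparisons stayed within 1.5 times. With a replicate block for each culture, Lifr between day 2 and day 3 in knockouts was -1.04 ± 0.38 (edgeR adjusted p = 0.0519), and no other call of the 9 genes changed. Among list genes named for the fall or rise in controls from day 0 to day 2, it lost Jak2, Stat4 and Ptpn2. Comparisons between genotypes at 1 day cannot carry this block. Of the values of the list genes named, 808 were kept, 96 lost the call and 3 gained it. Depth limits the lowest of the list and marker genes, such as Il6, Osm, Pramel7, Postn and Fap, which held at most 3 counts in every sample of at least 1 group.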
